A study of Mus musculus with 16 samples.

Results

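The 37 lysosomal genes described here encode 8 cysteine proteases, 3 aspartic and serine proteases, 7 glycosidases, 4 sulfatases and acid phosphatases, 5 lipid hydrolases and lipid-handling proteins, 8 membrane proteins and 2 regulators. They were taken by name: a probe set counted where the array's annotation gave it exactly 1 of these symbols, and the probe set with the highest mean stood for its gene. Arsb was the only member with a second probe set. All 37 were measured and all 37 passed the filter on dim genes, out of 10236 genes tested. No member had a group mean below the filter level of 6.83 log2 units, so none passed through a single group.

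Dendritic cells were grown from bone marrow of C57BL/6 mice with 10 ng/mL GM-CSF, a growth factor for myeloid cells, and were measured on 16 arrays in 4 groups of 4. The cells at 450 mOsm/L with LPS and at 450 mOsm/L without LPS had received extra NaCl from day 3, and those at 290 mOsm/L with and without LPS had not. All cells were collected on day 7 and plated for 6 h more, with LPS at 10 ng/mL in the stimulated groups; LPS comes from the outer membrane of Gram-negative bacteria and acts through TLR4. Each group holds 1 array from each of the same 4 mice, and the labels give no sorting step.

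Lysosomes are acidic organelles in which hydrolases break down proteins, glycans, lipids and nucleic acids that arrive by endocytosis, phagocytosis or autophagy. In dendritic cells their proteases also trim antigens and the invariant chain before peptides are loaded on MHC class II. The transcription factor TFEB binds a palindromic element with the core CACGTG in the promoters of many lysosomal genes, and phosphorylation by mTORC1 on the lysosome's surface keeps TFEB in the cytosol.

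The promoters of 4 members are printed because they belong to members with large or interacting changes and hold this core. They are RefSeq windows of the GRCm38.p6 assembly, from 250 bases before to 50 bases after an annotated start, read 5′ to 3′ on the gene's strand, with CACGTG in capitals. The Ctsl window is chr13:64370471-64370770 on the minus strand and its hexamer starts 236 bases before the annotated start. The Gla window is chrX:134600956-134601255 on the minus strand and holds 2 hexamers, starting 227 and 194 bases before the start. The Naglu window is chr11:101069844-101070143 on the plus strand with the hexamer 73 bases before the start, and the Sgsh window is chr11:119355461-119355760 on the minus strand with the hexamer 29 bases before it.
Ctsl: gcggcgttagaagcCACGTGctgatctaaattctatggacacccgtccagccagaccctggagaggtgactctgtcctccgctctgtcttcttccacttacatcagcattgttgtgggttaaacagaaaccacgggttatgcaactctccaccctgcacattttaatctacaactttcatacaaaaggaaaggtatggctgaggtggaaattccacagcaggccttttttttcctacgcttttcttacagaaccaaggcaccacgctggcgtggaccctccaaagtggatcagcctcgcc
Gla: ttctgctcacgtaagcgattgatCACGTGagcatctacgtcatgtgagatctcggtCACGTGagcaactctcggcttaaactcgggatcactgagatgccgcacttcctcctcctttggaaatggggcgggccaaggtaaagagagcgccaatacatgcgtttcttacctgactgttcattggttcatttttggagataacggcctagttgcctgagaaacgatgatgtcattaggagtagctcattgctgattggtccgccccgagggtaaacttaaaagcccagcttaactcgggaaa
Naglu: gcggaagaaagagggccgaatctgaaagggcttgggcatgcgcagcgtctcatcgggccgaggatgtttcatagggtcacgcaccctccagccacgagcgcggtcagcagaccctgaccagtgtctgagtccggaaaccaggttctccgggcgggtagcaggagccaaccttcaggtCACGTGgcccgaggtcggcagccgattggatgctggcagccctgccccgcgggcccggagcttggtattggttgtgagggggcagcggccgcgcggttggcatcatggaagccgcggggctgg
Sgsh: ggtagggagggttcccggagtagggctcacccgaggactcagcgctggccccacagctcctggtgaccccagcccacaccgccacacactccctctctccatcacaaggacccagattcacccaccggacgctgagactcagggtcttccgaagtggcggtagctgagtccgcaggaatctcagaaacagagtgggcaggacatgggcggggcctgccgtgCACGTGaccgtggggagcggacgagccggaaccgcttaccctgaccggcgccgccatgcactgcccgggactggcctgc

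A RefSeq window was at hand for 33 of the 37 members, and Ctsb, Ctsh, Asah1 and Npc1 had none. CACGTG, which reads the same on both strands, lay in a window of 10 of the 33 (30.3%): Ctsl, Lgmn, Ctsd, Ctsa, Gla, Glb1, Naglu, Sgsh, Lamp1 and Mcoln1. The share was 8.09% over all 27025 genes with a window and 12.1% over the 8250 tested genes with one. The longer palindrome TCACGTGA, which contains CACGTG, lay in 4 of 33 members (Ctsd, Ctsa, Gla and Mcoln1; 12.1%), against 2.38% of the tested genes. A 10-base palindrome that extends this one by a base at each end lay in 0 of 33 members, against 0.861% of the tested genes. These are matches of letters in a fixed window, and they show nothing about binding.

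The members' values lay on the upper part of the scale, with group means from 7.14 to 13.95 log2 units. A group mean over 13 was found for 10 members (Ctsb, Ctsc, Ctss, Ctsz, Ctsd, Lipa, Psap, Lamp1, Laptm5 and Grn). The highest value of any array was 14.3. Medians of the 16 arrays ran from 6.78 to 6.93. Differences between arrays of 1 group had an SD of 0.128 to 0.223 across genes, against 0.341 to 0.942 between groups. The array of 450 mOsm replicate 4 correlated least with its group (median r = 0.9897); without it, 8 members were higher and 6 lower with salt in unstimulated cells. The osmolyte transporter gene Slc6a12 was higher at 450 mOsm by 3.38 log2 units without LPS, and the cytokine gene Il6 was higher with LPS by 7.62 at 290 mOsm. The 9 tested of 12 listed dendritic cell markers averaged 10.8 log2 units on every array of 450 mOsm with LPS. They averaged 10.8 to 10.9 at 290 mOsm with LPS, and 10.5 to 10.6 at both osmolarities without LPS. These averages join changes of both signs. With LPS 3 of the 9 were higher and 3 lower at 290 mOsm (changes from -0.48 to 2.48). At 450 mOsm 2 were higher and 4 lower with LPS (-0.50 to 2.88). With salt 1 was higher and 1 lower without LPS (-0.24 to 0.20), and 2 and 2 with LPS (-1.02 to 0.42). Flt3 had group means below the filter level in 3 groups and Zbtb46 in the group at 290 mOsm without LPS.

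Salt also changed markers of other myeloid cells. Of 14 neutrophil markers, 0 were higher and 14 lower at 450 than at 290 mOsm without LPS, with a median of -3.01 log2 units, and 0 were higher and 12 lower with LPS, with a median of -2.49. Their summed level, as the mean log2 value of an array, was 7.65 to 7.87 at 450 mOsm with LPS, against 9.88 to 10.3 at 290 mOsm with LPS. Without LPS it was 6.92 to 7.05 at 450 mOsm, where 9 of the 14 had a group mean below the filter level, against 9.73 to 10.2 at 290 mOsm. Mast cell and basophil markers were lower in 6 of 6 cases without LPS and in 3 of 6 with LPS, where 1 was higher. At 450 mOsm without LPS 5 of these 6 had a group mean below the filter level. Macrophage markers were lower in 5 of 10 and 7 of 10, with 1 and 0 higher. Of 5 monocyte markers, 1 was higher and 2 lower without LPS (median 0.25, changes from -2.12 to 2.72). With LPS 1 was higher and 3 lower (median -0.94). The part of these changes in the salt results below was not tested, and in RNA from whole cultures fewer cells of a type and less RNA per cell cannot be told apart.

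LPS lowered most of the lysosomal genes at both osmolarities, and markers of other cells moved with it too. At 290 mOsm 1 of 7 osteoclast markers was higher and 5 lower (median -0.55), 5 of 6 mast cell and basophil markers were higher and 1 lower (0.72), 3 of 5 monocyte markers higher and 1 lower (0.84), 6 of 14 neutrophil markers higher and 2 lower (0.25), and 5 of 10 macrophage markers higher and 5 lower (0.01). At 450 mOsm these counts were 2 and 4 (-0.38), 2 and 0 (0.31), 3 and 1 (0.74), 8 and 2 (0.36), and 5 and 5 (0.01), in the same order of markers. Their part in the LPS results was not tested. At 290 mOsm, 7 of the 37 were higher and 27 lower with LPS than without (limma, Benjamini-Hochberg adjusted p under 0.05 over 10236 genes); of all genes tested 26.4% were higher and 47.1% lower. The members' median log2 change was -0.40, beside -0.11 for all genes, and 11 members fell by at least 0.5. At 450 mOsm, 6 members were higher and 28 lower with LPS, where 26.4% of all genes were higher and 45.3% lower. The median was -0.27 for the members and -0.09 for all genes. Of the 27 and the 28 lower members, 26 were in both groups, and 5 were higher in both; these comparisons use different arrays. Without replicate 2 of 450 mOsm or replicate 1 of 450 mOsm with LPS, 3 members were higher at 450 mOsm. Over all genes 2702 were higher and 4819 lower with LPS at 290 mOsm, and with loess scaling 3860 and 3737; at 450 mOsm 2707 were higher and 4641 lower, and with loess 3728 and 3666. Loess scaling moved the median of all genes by 0.13 at 290 mOsm and 0.12 at 450 mOsm. Relative to that median the members' median was -0.29 and, with loess, -0.26 at 290 mOsm, and -0.18 and, with loess, -0.26 at 450 mOsm. It was -0.34 at 450 mOsm after quantile normalization and -0.42 at 290 mOsm with no filter on dim genes. Of the 34 members called at each osmolarity, 30 stayed called with their sign under loess and 29 under quantile normalization at 290 mOsm, and 29 and 30 at 450 mOsm.

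Salt changed fewer of them. Without LPS, 7 members were higher and 6 lower at 450 than at 290 mOsm, beside 20.6% of all genes higher and 23.7% lower, so the members' shares of 18.9% and 16.2% were no higher than those of all genes. With LPS, 5 members were higher and 13 lower, where 16.8% of all genes were higher and 21.8% lower; the members' shares were 13.5% and 35.1%. Without replicate 1 of 290 mOsm with LPS or replicate 4 of 450 mOsm with LPS, 3 were higher. Over all genes 2104 were higher and 2426 lower without LPS, and 1343 and 3047 after median centring. Both medians were 0.00. Ctsk, Neu1, Ppt1 and Lamp1 were higher in both salt comparisons, and Ctsb, Ctsl, Lgmn, Arsb and Cd63 lower in both. Leaving out any 1 mouse lost both Lamp1 calls and the Neu1 call with LPS. The Ctsb call with LPS and the Lgmn call without LPS were lost without some of the mice. The effect of salt differed with LPS, as an interaction in the same model, in 1 member in the positive direction and 3 in the negative. These are 2.7% and 8.11% of the members, below the 10.7% and 10.4% of all genes. Without replicate 2 of 290 mOsm the positive count was 2. The comparisons of salt and of LPS share arrays, so their values for a gene are given side by side and not as independent results. Of the 103 changes called among the members, 85 also passed without each single array in turn.

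**Figure D1:**
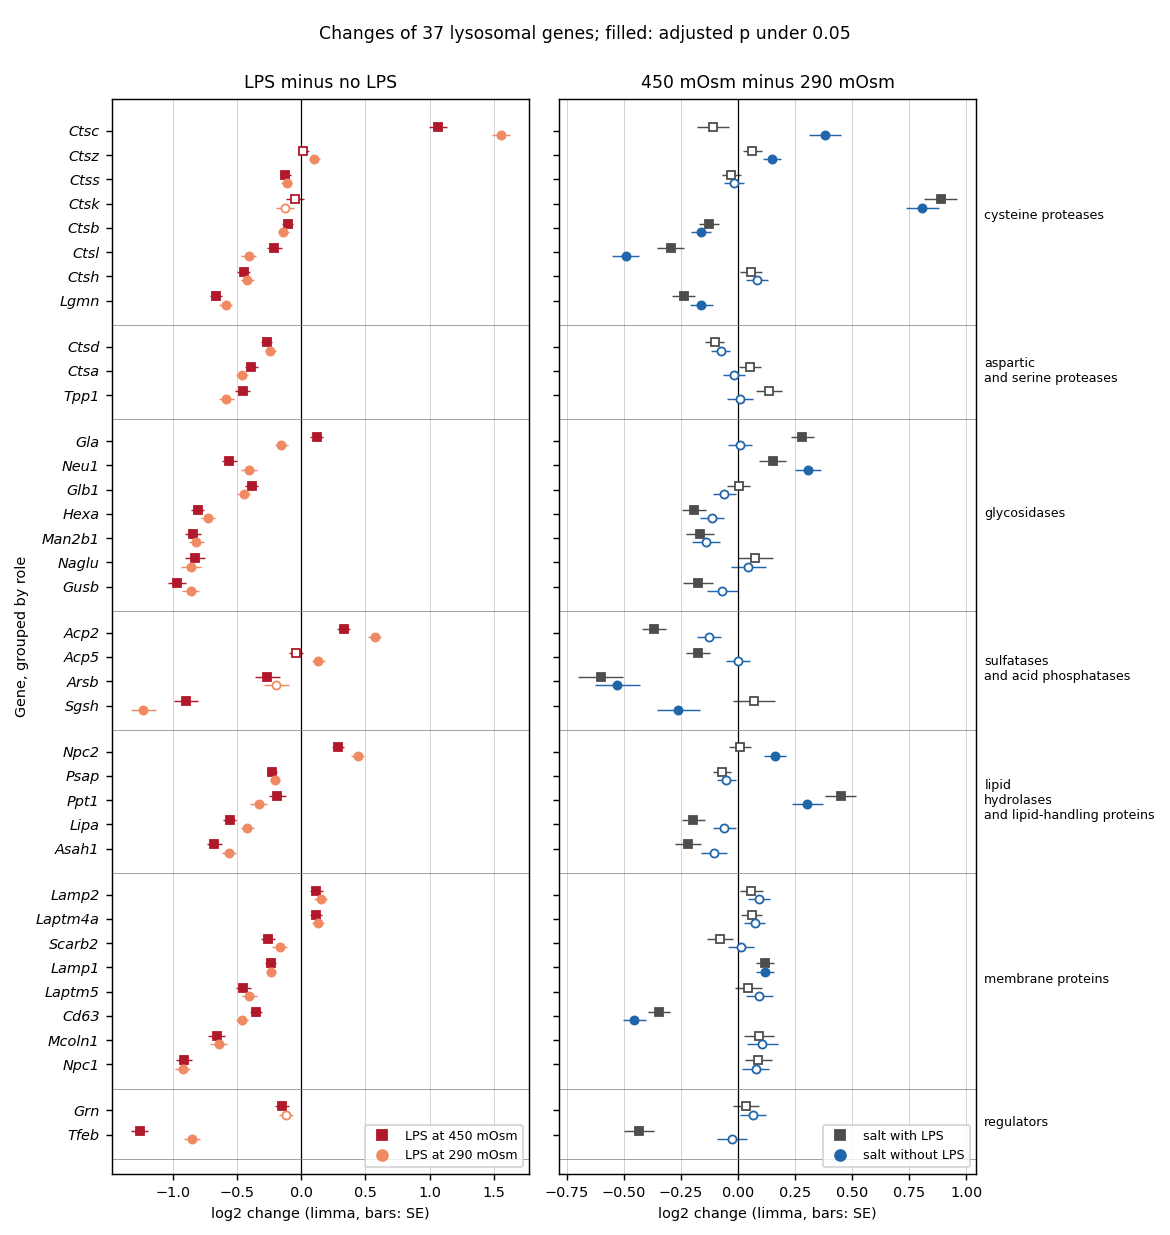
Log2 changes of the 37 lysosomal genes (horizontal axis, log2 units; bars, SE of the limma fit) for LPS against no LPS (left panel, at 450 and 290 mOsm) and for 450 against 290 mOsm (right panel, with and without LPS), grouped by role; filled symbols have an adjusted p under 0.05. In the left panel 27 symbols for 290 mOsm and 28 for 450 mOsm are called below 0, and Ctsc is the farthest to the right; its value is 1.06 at 450 mOsm and 1.56 at 290 mOsm. In the right panel Ctsk is the farthest to the right and Arsb the farthest to the left.

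Cysteine proteases cut proteins with a catalytic cysteine. Of the 8, 2 rose and 5 fell with LPS at 290 mOsm and 1 rose and 5 fell at 450 mOsm. The lower share was 62.5% at each osmolarity. Of all genes 47.1% were lower at 290 mOsm and 45.3% at 450 mOsm, and 26.4% were higher at each. With salt 3 rose and 3 fell without LPS, and 1 rose and 3 fell with LPS. Salt gave 20.6% of all genes higher and 23.7% lower without LPS, and 16.8% and 21.8% with LPS. These shares of all genes are the background for the counts of each role below. Values per array are given in the order of mice 1 to 4, which are also the replicate numbers, and each SE comes from the fit over 16 arrays.

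Ctsc encodes cathepsin C, or dipeptidyl peptidase 1, which activates granule serine proteases by removing dipeptides. Ctsc had log2 values of 12.99, 12.96, 12.82 and 12.90 at 450 mOsm and of 13.08, 13.10, 12.95 and 12.99 at 290 mOsm in cells given LPS. The arrays without LPS gave 12.04, 11.92, 11.77 and 11.67 at 450 mOsm, against 11.53, 11.52, 11.42 and 11.41 at 290 mOsm. Every LPS array lay above every array without LPS, and the 450 mOsm arrays lay above the 290 mOsm arrays only without LPS. LPS raised Ctsc by 1.06 ± 0.07 (SE; adjusted p = 1.37e-10) at 450 mOsm and by 1.56 ± 0.07 (SE; adjusted p = 6.47e-13) at 290 mOsm, 2.09-fold and 2.94-fold, in 4 of 4 mice each. Salt raised it by 0.38 ± 0.07 (SE; adjusted p = 0.0003) without LPS. With LPS the salt change was -0.11 ± 0.07 and did not pass (adjusted p = 0.219). The LPS arrays lie at 12.82 to 13.10, in the upper part of a scale whose highest value was 14.3. Any part of the scale in the smaller salt change with LPS was not tested.

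Ctsk encodes cathepsin K, a collagenase best known from osteoclasts. Ctsk had log2 values of 9.20, 9.06, 9.23 and 9.05 at 450 mOsm and of 8.36, 8.12, 8.29 and 8.22 at 290 mOsm in cells given LPS. In unstimulated cells it had 9.29, 9.18, 9.16 and 9.10 at 450 mOsm, against 8.46, 8.16, 8.44 and 8.45 at 290 mOsm. The 450 mOsm arrays lay above all 290 mOsm arrays in both settings, and replicate 2 was the lowest of the 290 mOsm arrays in both. Salt raised Ctsk by 0.89 ± 0.07 (SE; adjusted p = 3.33e-08) with LPS and by 0.81 ± 0.07 (SE; adjusted p = 1.02e-07) without LPS, 1.85-fold and 1.75-fold, in 4 of 4 mice each. LPS changed it by -0.05 ± 0.07 at 450 mOsm (adjusted p = 0.569) and by -0.13 ± 0.07 at 290 mOsm (adjusted p = 0.119). Neither passed; the sign turned under loess scaling at both osmolarities and under quantile normalization at 290 mOsm. With the mouse as a block the change at 290 mOsm passed (adjusted p = 0.0483), as it did without replicate 2 of the 290 mOsm arrays without LPS (-0.20, adjusted p = 0.0118). Of 7 tested osteoclast markers, 1 was higher and 5 lower at 450 mOsm without LPS, with a median of -0.76, and 0 were higher and 4 lower with LPS; the fusion receptor gene Ocstamp fell by 1.57 without LPS. The part of such cells in the Ctsk result was not tested.

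Ctsl encodes cathepsin L, an endopeptidase that can process the invariant chain. Ctsl had log2 values of 12.19, 12.12, 12.32 and 12.31 at 450 mOsm and of 12.59, 12.49, 12.54 and 12.49 at 290 mOsm in cells given LPS. Unstimulated cells had 12.39, 12.41, 12.49 and 12.49 at 450 mOsm, against 13.06, 12.90, 12.96 and 12.84 at 290 mOsm. In both settings the 450 mOsm arrays lay below all 290 mOsm arrays, and in both osmolarities the LPS arrays lay below all arrays without LPS. Salt changed Ctsl by -0.30 ± 0.06 (SE; adjusted p = 0.000598) with LPS and by -0.49 ± 0.06 (SE; adjusted p = 3.12e-06) without LPS. The LPS changes were -0.21 ± 0.06 (SE; adjusted p = 0.0034) at 450 mOsm and -0.41 ± 0.06 (SE; adjusted p = 4.82e-06) at 290 mOsm.

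Lgmn, the asparaginyl endopeptidase legumain, fell with LPS by 0.66 at 450 mOsm and 0.59 at 290 mOsm, and with salt by 0.24 with LPS and 0.16 without. The salt call without LPS was lost under quantile normalization (-0.11, adjusted p = 0.0896), with loess (-0.10, 0.0992) and without mouse 1, 2 or 3 (0.0514 to 0.0853). Ctsh, an aminopeptidase, fell with LPS by 0.45 at 450 mOsm and 0.42 at 290 mOsm. The other 3 moved little. Ctss, the main invariant chain protease of dendritic cells, averaged 13.52 ± 0.02 at 450 mOsm with LPS, 13.55 ± 0.05 at 290 mOsm with LPS, 13.64 ± 0.02 at 450 mOsm without LPS and 13.66 ± 0.05 at 290 mOsm without LPS (SD, n = 4 each). Its LPS changes of -0.12 at 450 mOsm and -0.11 at 290 mOsm were called, the second not without 290 mOsm replicate 1 or 3 or 290 mOsm LPS replicate 2 (adjusted p from 0.0556 to 0.079); with loess neither passed (-0.09 at 450 mOsm, 0.0698; -0.05 at 290 mOsm, 0.248). After median centring neither Ctss call for LPS passed (0.172 at 450 mOsm, 0.114 at 290 mOsm). Without mouse 1 or 3 both were lost too (0.0709 to 0.0991). Ctsb, an abundant endopeptidase and carboxypeptidase, was lower in all 4 pairwise comparisons, with changes of -0.16 to -0.10. Its call for LPS at 450 mOsm was lost without each of 6 arrays (replicates 1, 2 and 3 of 450 mOsm with and without LPS; adjusted p from 0.055 to 0.103), and that for salt with LPS without each of 4 (replicates 1 and 3 at 450 mOsm and 3 and 4 at 290 mOsm, all with LPS; 0.062 to 0.0897). With loess 3 of its calls were lost, for LPS at 450 mOsm (0.18), LPS at 290 mOsm (-0.08, 0.101) and salt with LPS (0.089). Leaving out any 1 mouse lost the call for LPS at 450 mOsm (0.0536 to 0.193). So did no filter (0.103), median centring (0.314) and a fit of only the groups compared (0.0606). The Ctsb call for salt with LPS was lost without mouse 1, 3 or 4 (0.0745 to 0.169). That for LPS at 290 mOsm was lost without mouse 1 (0.0541). Ctsz, a carboxypeptidase, rose with salt without LPS by 0.15 and with LPS at 290 mOsm by 0.10; without replicate 3 or 4 of 290 mOsm or replicate 4 of 290 mOsm with LPS the LPS call was lost (0.0517 to 0.101), as it was after quantile normalization (0.01, 0.824), and the salt call was lost after median centring (0.09, 0.0847).

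The aspartic and serine proteases fell with LPS in 3 of 3 cases at each osmolarity. Of all genes 47.1% were lower at 290 mOsm and 45.3% at 450 mOsm. With salt 0 of 3 were called in each setting, with changes from -0.10 to 0.13. Tpp1, a tripeptidyl peptidase that removes N-terminal tripeptides, averaged 11.32 ± 0.06 and 11.19 ± 0.12 with LPS at 450 and 290 mOsm, against 11.78 ± 0.06 and 11.77 ± 0.05 without LPS at 450 and 290 mOsm (SD, n = 4 each). Its LPS changes were -0.46 at 450 mOsm and -0.58 at 290 mOsm. Ctsa, a serine carboxypeptidase that also protects Glb1 and Neu1 in a complex, changed by -0.39 and -0.46, and the aspartic protease gene Ctsd by -0.27 and -0.24. Without LPS the Ctsd arrays lay between 13.84 and 13.96, near the top of the scale.

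Glycosidases remove sugars from glycoproteins, glycolipids and glycosaminoglycans. With LPS 0 of 7 rose and 7 fell at 290 mOsm, with a median change of -0.73, and 1 rose and 6 fell at 450 mOsm, with a median of -0.81; the 1 that rose, Gla, turned its sign under quantile normalization, and its fall at 290 mOsm was lost with loess. The lower shares with LPS were 100% at 290 mOsm and 85.7% at 450 mOsm, against 47.1% and 45.3% of all genes. With salt 1 rose and 0 fell without LPS, and 2 rose and 3 fell with LPS.

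Gusb encodes beta-glucuronidase, which trims glucuronic acid from glycosaminoglycans. Gusb had log2 values of 10.43, 10.32, 10.50 and 10.60 at 450 mOsm and of 10.57, 10.56, 10.71 and 10.73 at 290 mOsm in cells given LPS. Without LPS the values were 11.39, 11.47, 11.30 and 11.56 at 450 mOsm, against 11.57, 11.43, 11.51 and 11.49 at 290 mOsm. Every LPS array lay below every array without LPS at the same osmolarity. LPS changed Gusb by -0.97 ± 0.07 (SE; adjusted p = 3.07e-10) at 450 mOsm, 1.96-fold lower, and by -0.86 ± 0.07 (SE; adjusted p = 1.72e-09) at 290 mOsm, 1.82-fold lower. With LPS the salt change of -0.18 was called (adjusted p = 0.0463) although the groups overlapped, and it was lost without each of 10 of the 16 arrays: replicates 1, 2 and 3 of 450 mOsm with LPS, 3 and 4 of 290 mOsm with LPS, 1 and 2 of 450 mOsm, and 2, 3 and 4 of 290 mOsm (0.0506 to 0.151). It was also lost with loess (0.167), quantile normalization (0.151), no filter (0.0826) and only the groups compared (0.0582). Without LPS the change of -0.07 did not pass (adjusted p = 0.411).

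Naglu encodes the alpha-N-acetylglucosaminidase of heparan sulfate breakdown. Naglu had log2 values of 9.07, 9.12, 9.26 and 9.28 at 450 mOsm and of 9.09, 8.95, 9.14 and 9.24 at 290 mOsm in cells given LPS. The arrays without LPS gave 10.01, 9.98, 9.91 and 10.14 at 450 mOsm, against 9.95, 9.78, 10.02 and 10.10 at 290 mOsm. The LPS arrays all lay below the arrays without LPS, and the 450 and 290 mOsm arrays overlapped in both settings. The LPS change was -0.83 ± 0.08 (SE; adjusted p = 1.59e-08) at 450 mOsm and -0.86 ± 0.08 (SE; adjusted p = 1.02e-08) at 290 mOsm. Salt changed Naglu by 0.08 with LPS (adjusted p = 0.454) and 0.05 without (adjusted p = 0.649).

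Man2b1 encodes the lysosomal alpha-mannosidase of N-glycan breakdown. Man2b1 had log2 values of 11.24, 11.28, 11.23 and 11.26 at 450 mOsm and of 11.37, 11.33, 11.49 and 11.50 at 290 mOsm in cells given LPS. In unstimulated cells it had 12.14, 12.17, 11.97 and 12.10 at 450 mOsm, against 12.15, 12.15, 12.36 and 12.29 at 290 mOsm. The LPS groups did not overlap with the groups without LPS, and with LPS all 450 mOsm arrays lay below all 290 mOsm arrays. LPS changed it by -0.84 ± 0.06 (SE; adjusted p = 4.07e-10) at 450 mOsm and -0.82 ± 0.06 (SE; adjusted p = 6.87e-10) at 290 mOsm. The salt change was -0.17 with LPS (adjusted p = 0.0344), a call lost without each of 5 arrays with LPS (replicates 1, 3 and 4 at 450 mOsm, 3 and 4 at 290 mOsm; 0.0584 to 0.0975), with loess (0.134), quantile normalization (0.0721) and no filter (0.0686), and -0.14 without LPS (adjusted p = 0.0637), which passed without replicate 1 (0.0457) or replicate 2 (0.0414) of the 290 mOsm arrays, with a trended robust variance (0.0378) and with median centring (0.0159).

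Hexa encodes the alpha subunit of beta-hexosaminidase, which degrades GM2 ganglioside. Hexa had log2 values of 11.45, 11.43, 11.48 and 11.59 at 450 mOsm and of 11.62, 11.67, 11.63 and 11.81 at 290 mOsm in cells given LPS. Unstimulated cells had 12.31, 12.21, 12.33 and 12.33 at 450 mOsm, against 12.40, 12.36, 12.43 and 12.45 at 290 mOsm. Here too each LPS array lay below each array without LPS, and in both settings the 450 mOsm arrays lay below the 290 mOsm arrays. LPS changed Hexa by -0.81 ± 0.05 (SE; adjusted p = 1.29e-10) at 450 mOsm and by -0.73 ± 0.05 (SE; adjusted p = 6e-10) at 290 mOsm. With LPS, salt changed it by -0.19 ± 0.05 (SE; adjusted p = 0.00743). The change of -0.11 without LPS did not pass (adjusted p = 0.087), but it did with the mouse as a fixed block (0.0488), a trended robust variance (0.0492), array weights (0.0415) and median centring (0.0147).

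Gla encodes alpha-galactosidase A, which removes terminal galactose from globotriaosylceramide. Gla had log2 values of 11.47, 11.30, 11.53 and 11.46 at 450 mOsm and of 11.16, 11.13, 11.15 and 11.18 at 290 mOsm in cells given LPS. Without LPS the values were 11.26, 11.30, 11.31 and 11.41 at 450 mOsm, against 11.37, 11.31, 11.29 and 11.28 at 290 mOsm. With LPS the 450 mOsm arrays lay above all 290 mOsm arrays, and without LPS the groups overlapped. Salt raised Gla with LPS by 0.28 ± 0.05 (SE; adjusted p = 0.000313), in 4 of 4 mice, and changed it by 0.01 ± 0.05 without LPS (adjusted p = 0.918). At 290 mOsm LPS changed it by -0.15 ± 0.05 (SE; adjusted p = 0.0121), a call lost with loess (-0.04, 0.466) and without mouse 1 (0.07). The rise of 0.12 at 450 mOsm (adjusted p = 0.0452) was lost without each of 13 of the 16 arrays (0.0512 to 0.148; it held without 450 mOsm LPS replicate 2, 450 mOsm replicate 4 or 290 mOsm replicate 1) and was -0.04 after quantile normalization.

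Neu1, the lysosomal sialidase, was the one glycosidase that rose with salt without LPS. Neu1 had log2 values of 8.71, 8.63, 8.77 and 8.72 at 450 mOsm and of 8.57, 8.52, 8.49 and 8.64 at 290 mOsm in cells given LPS. The arrays without LPS gave 9.41, 9.30, 9.17 and 9.20 at 450 mOsm, against 9.05, 8.87, 8.96 and 8.97 at 290 mOsm. The 450 mOsm arrays lay above all 290 mOsm arrays without LPS and overlapped with them by 1 array on each side with LPS. The salt change was 0.31 ± 0.06 (SE; adjusted p = 0.000473) without LPS. With LPS it was 0.15, at the threshold (adjusted p = 0.05 after rounding), and it did not pass without each of 9 arrays: replicates 1, 3 and 4 of 450 mOsm with LPS, 1, 2 and 3 of 290 mOsm with LPS, 2 of 450 mOsm, and 3 and 4 of 290 mOsm (0.058 to 0.126), nor with no filter (0.0952) or after median centring (0.156). LPS lowered Neu1 by 0.56 at 450 mOsm and 0.41 at 290 mOsm. Glb1, the beta-galactosidase that shares the complex with Neu1 and Ctsa, fell with LPS by 0.39 at 450 mOsm and 0.45 at 290 mOsm.

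**Figure D2:**
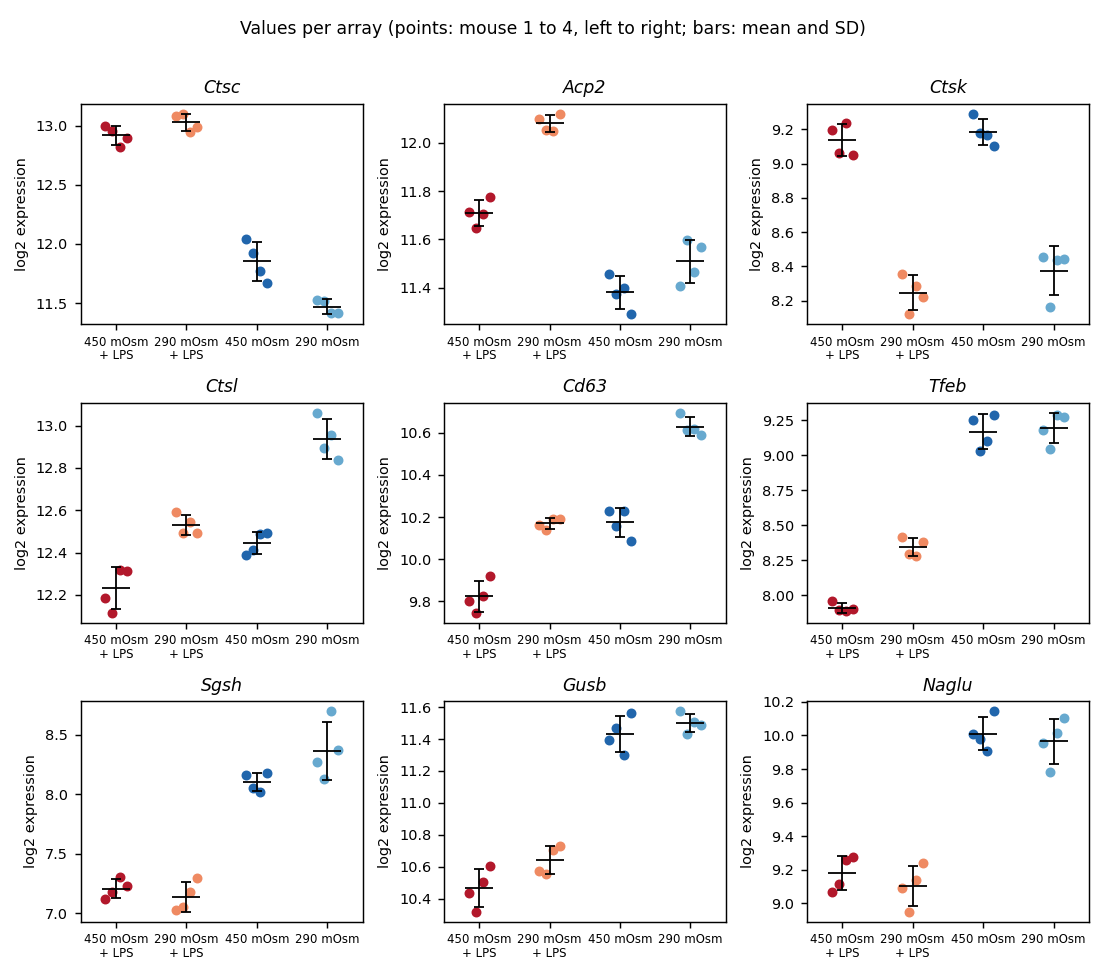
Log2 expression on each array (vertical axis, log2 units; separate scale per gene) for 9 lysosomal genes at 450 mOsm with LPS, 290 mOsm with LPS, 450 mOsm without LPS and 290 mOsm without LPS; points are mice 1 to 4 from left to right, bars the mean and SD of 4 arrays. Ctsc and Acp2 are higher in the LPS groups, Tfeb, Sgsh, Gusb and Naglu lower in them, and Ctsk is higher in both 450 mOsm groups. At the same LPS setting Ctsl and Cd63 are lower at 450 than at 290 mOsm. At the same osmolarity both are also lower with LPS.

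Sulfatases remove sulfate groups and acid phosphatases remove phosphate. LPS raised 2 of these 4 members and lowered 1 at 290 mOsm, and raised 1 and lowered 2 at 450 mOsm; salt raised 0 and lowered 2 without LPS, and raised 0 and lowered 3 with LPS. Sgsh encodes the sulfamidase of heparan sulfate breakdown. Sgsh had log2 values of 7.12, 7.18, 7.30 and 7.23 at 450 mOsm and of 7.03, 7.05, 7.18 and 7.29 at 290 mOsm in cells given LPS. In unstimulated cells it had 8.16, 8.06, 8.02 and 8.18 at 450 mOsm, against 8.27, 8.13, 8.70 and 8.37 at 290 mOsm. The LPS arrays all lay below every array without LPS, and the 450 and 290 mOsm arrays overlapped in both settings. The LPS change was -0.90 ± 0.09 (SE; adjusted p = 8.7e-08) at 450 mOsm and -1.23 ± 0.09 (SE; adjusted p = 1.22e-09) at 290 mOsm, 1.86-fold and 2.34-fold lower. Without LPS, salt changed Sgsh by -0.26 ± 0.09 (SE; adjusted p = 0.031) with overlapping groups. That call was lost without 290 mOsm replicate 3 or 4 or 450 mOsm replicate 2 or 3 (0.0576 to 0.117), and without the high replicate 3 of 290 mOsm the change was -0.15; it did not pass after quantile normalization (0.0595) or with only the groups compared (0.064). With LPS the salt change was 0.07 ± 0.09 (adjusted p = 0.581).

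Arsb encodes arylsulfatase B, which acts on dermatan and chondroitin sulfate. Arsb had log2 values of 8.44, 8.47, 8.32 and 8.53 at 450 mOsm and of 9.02, 8.89, 9.23 and 9.03 at 290 mOsm in cells given LPS. Unstimulated cells had 8.83, 8.85, 8.38 and 8.76 at 450 mOsm, against 9.31, 9.03, 9.36 and 9.24 at 290 mOsm. In both settings all 450 mOsm arrays lay below all 290 mOsm arrays. Salt changed Arsb by -0.60 ± 0.10 (SE; adjusted p = 0.00011) with LPS and by -0.53 ± 0.10 (SE; adjusted p = 0.000361) without LPS, 1.52-fold and 1.44-fold lower. A second, dimmer probe set averaged 7.06 at 450 mOsm and 7.44 at 290 mOsm with LPS, and 7.18 at 450 mOsm and 7.6 at 290 mOsm without LPS. LPS changed Arsb by -0.26 at 450 mOsm (adjusted p = 0.0229), which was lost without 450 mOsm replicate 1, 2 or 4 or 450 mOsm LPS replicate 3 (0.0505 to 0.0792), with loess (-0.12, 0.296), quantile normalization (0.117) and median centring (0.0569). At 290 mOsm the change of -0.19 did not pass (adjusted p = 0.0881), and it passed without 290 mOsm replicate 2 (-0.26), 290 mOsm LPS replicate 3 (-0.25) or 450 mOsm replicate 3 (-0.19; 0.0267 to 0.0353), and as the mean of both probe sets (-0.18, 0.0343).

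Acp2 encodes the tartrate-sensitive lysosomal acid phosphatase. Acp2 had log2 values of 11.72, 11.65, 11.71 and 11.78 at 450 mOsm and of 12.10, 12.05, 12.05 and 12.12 at 290 mOsm in cells given LPS. Without LPS the values were 11.46, 11.37, 11.40 and 11.29 at 450 mOsm, against 11.41, 11.60, 11.47 and 11.57 at 290 mOsm. The LPS arrays lay above all arrays without LPS, and among LPS arrays those at 450 mOsm lay below those at 290 mOsm. LPS raised Acp2 by 0.33 ± 0.05 (SE; adjusted p = 1.65e-05) at 450 mOsm and 0.57 ± 0.05 (SE; adjusted p = 1.53e-08) at 290 mOsm. With LPS, salt changed it by -0.37 ± 0.05 (SE; adjusted p = 2.33e-05). Without LPS the change of -0.13 did not pass (adjusted p = 0.0555), but it did with the mouse as a random block (0.049), without replicate 1 of 290 mOsm (-0.16, 0.0259) or of 450 mOsm (-0.15, 0.0357), and in 4 further settings (the stricter filter, a trended robust variance, array weights and median centring; 0.0162 to 0.0454). Acp5, the tartrate-resistant acid phosphatase of osteoclasts and macrophages, fell with salt by 0.17 with LPS, lost with loess (0.056) and without mouse 1 or 2 (0.0636 to 0.0747). Its rise of 0.13 with LPS at 290 mOsm was lost without 290 mOsm replicate 2 or 4 or 290 mOsm LPS replicate 1 or 3 (0.0592 to 0.101), with no filter (0.0637) and after quantile normalization (0.04, 0.442).

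Of the 5 lipid hydrolases and lipid-handling proteins, LPS raised 1 and lowered 4 at each osmolarity. The lower share was 80.0%, against 47.1% of all genes at 290 mOsm and 45.3% at 450 mOsm. Salt raised 2 and lowered 0 without LPS and raised 1 and lowered 2 with LPS. Ppt1 encodes palmitoyl-protein thioesterase 1, which removes fatty acids from proteins. Ppt1 had log2 values of 9.82, 9.66, 9.67 and 9.68 at 450 mOsm and of 9.39, 9.20, 9.25 and 9.20 at 290 mOsm in cells given LPS. The arrays without LPS gave 10.01, 9.99, 9.87 and 9.72 at 450 mOsm, against 9.67, 9.46, 9.63 and 9.60 at 290 mOsm. In both settings the 450 mOsm arrays lay above all 290 mOsm arrays. Salt raised Ppt1 by 0.45 ± 0.07 (SE; adjusted p = 4.72e-05) with LPS and 0.30 ± 0.07 (SE; adjusted p = 0.00172) without. LPS lowered it at 290 mOsm by 0.33 (adjusted p = 0.000247). At 450 mOsm the LPS change of -0.19 was called with overlapping groups (adjusted p = 0.0203) and lost without replicate 1 or 2 of 450 mOsm or replicate 2 of 450 mOsm with LPS (0.0512 to 0.0722), with loess (-0.06, 0.429) and after median centring (0.116).

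Npc2, a soluble protein that hands cholesterol to Npc1, was the lipid gene that rose with LPS. It averaged 11.92 ± 0.03 and 11.91 ± 0.06 with LPS at 450 and 290 mOsm, against 11.64 ± 0.07 and 11.47 ± 0.07 without LPS at 450 and 290 mOsm (SD, n = 4 each). The LPS changes were 0.29 ± 0.05 (SE; adjusted p = 4.11e-05) at 450 mOsm and 0.44 ± 0.05 (SE; adjusted p = 2.2e-07) at 290 mOsm, and salt raised Npc2 by 0.16 without LPS, with overlapping groups. That salt call was lost after median centring (0.11, adjusted p = 0.0997) and without mouse 2 (0.0939) or mouse 4 (0.12, 0.137). Asah1, acid ceramidase, fell with LPS by 0.68 at 450 mOsm and 0.56 at 290 mOsm. Lipa, the acid lipase of cholesteryl esters and triglycerides, fell by 0.56 and 0.42, and Psap, the precursor of the saposins, by 0.23 and 0.21. With LPS, salt lowered Asah1 by 0.22 and Lipa by 0.20.

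Among the 8 membrane proteins LPS raised 2 and lowered 6 at each osmolarity, and salt raised 1 and lowered 1 in each setting. The lower share with LPS was 75.0%, against 47.1% of all genes at 290 mOsm and 45.3% at 450 mOsm. Npc1 encodes the membrane protein that exports cholesterol. Npc1 had log2 values of 10.61, 10.64, 10.82 and 10.65 at 450 mOsm and of 10.56, 10.51, 10.62 and 10.68 at 290 mOsm in cells given LPS. In unstimulated cells it had 11.54, 11.55, 11.56 and 11.72 at 450 mOsm, against 11.45, 11.48, 11.56 and 11.57 at 290 mOsm. The LPS arrays all lay below the arrays without LPS and the 450 and 290 mOsm arrays overlapped. LPS changed Npc1 by -0.91 ± 0.06 (SE; adjusted p = 1.08e-10) at 450 mOsm and -0.92 ± 0.06 (SE; adjusted p = 9.82e-11) at 290 mOsm, 1.88-fold and 1.90-fold lower. The salt changes of 0.09 ± 0.06 with LPS (adjusted p = 0.25) and 0.08 ± 0.06 without (adjusted p = 0.296) did not pass.

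Cd63 encodes a tetraspanin of late endosomes, lysosomes and secretory granules. Cd63 had log2 values of 9.80, 9.75, 9.83 and 9.92 at 450 mOsm and of 10.16, 10.14, 10.19 and 10.19 at 290 mOsm in cells given LPS. Unstimulated cells had 10.23, 10.16, 10.23 and 10.08 at 450 mOsm, against 10.70, 10.61, 10.62 and 10.59 at 290 mOsm. Each treatment alone gave lower arrays than neither, and the arrays with both were the lowest. Salt changed Cd63 by -0.35 ± 0.05 (SE; adjusted p = 2.38e-05) with LPS and by -0.45 ± 0.05 (SE; adjusted p = 1.09e-06) without. The LPS changes were -0.35 ± 0.05 (SE; adjusted p = 3.81e-06) at 450 mOsm and -0.46 ± 0.05 (SE; adjusted p = 1.21e-07) at 290 mOsm. Cd63 is also a marker of basophil and mast cell granules, whose listed genes fell with salt as given above; their part in this change was not tested.

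Mcoln1, a calcium release channel of the lysosome's membrane, fell with LPS by 0.66 at 450 mOsm and 0.64 at 290 mOsm. Laptm5, a membrane protein of blood cells, fell by 0.45 and 0.40, and Scarb2, the receptor that carries glucocerebrosidase to lysosomes, by 0.26 and 0.17, the second lost with loess (-0.04, adjusted p = 0.483) and without mouse 2 (0.0934) or mouse 3 (0.0968). The abundant structural proteins parted: Lamp1 changed by -0.24 at 450 mOsm and -0.24 at 290 mOsm with LPS, and Lamp2 by 0.12 and 0.15, although after quantile normalization Lamp2 was -0.04 at 450 mOsm and did not pass at 290 mOsm (0.10, 0.0667). Laptm4a, a transmembrane relative of Laptm5, changed by 0.12 and 0.13, with -0.04 at 450 mOsm and 0.02 at 290 mOsm (adjusted p = 0.772) after quantile normalization, where neither passed. The 450 mOsm calls were lost without each of 10 arrays for Lamp2 (replicates 1, 2 and 3 of 450 mOsm with LPS, 2, 3 and 4 of 290 mOsm with LPS, 2 and 4 of 450 mOsm, 2 and 3 of 290 mOsm; 0.0505 to 0.179) and without each of 5 for Laptm4a (replicates 1 and 4 of 450 mOsm with LPS, 1, 2 and 3 of 450 mOsm; 0.0603 to 0.0817). Lamp1 rose with salt by 0.12 with LPS and by 0.12 without LPS. Among LPS arrays, leaving out 450 mOsm replicate 2 or 4 or 290 mOsm replicate 1 or 3 lost the first call (0.0514 to 0.0637). The call without LPS was lost without 290 mOsm replicate 2 (0.0533) and with only the groups compared (0.0711). Both calls were lost without any 1 of the 4 mice (0.0568 to 0.122 with LPS, 0.0542 to 0.107 without). Neither passed with no filter (0.0795 with LPS, 0.0578 without) or after median centring (0.146 and 0.253).

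The regulators were Tfeb, described above, and Grn. Tfeb had log2 values of 7.96, 7.89, 7.88 and 7.90 at 450 mOsm and of 8.42, 8.30, 8.28 and 8.38 at 290 mOsm in cells given LPS. Without LPS the values were 9.25, 9.03, 9.10 and 9.29 at 450 mOsm, against 9.18, 9.04, 9.28 and 9.27 at 290 mOsm. The LPS arrays lay below all arrays without LPS, and the arrays at 450 mOsm with LPS lay below those at 290 mOsm with LPS, while without LPS the groups overlapped. LPS changed Tfeb by -1.26 ± 0.06 (SE; adjusted p = 3.73e-12) at 450 mOsm and -0.85 ± 0.06 (SE; adjusted p = 1.04e-09) at 290 mOsm, 2.39-fold and 1.80-fold lower. Salt changed it by -0.43 ± 0.06 (SE; adjusted p = 3.7e-05) with LPS and by -0.03 ± 0.06 without LPS (adjusted p = 0.759). Grn, which encodes the secreted and lysosomal protein progranulin, changed with LPS by -0.15 at 450 mOsm, lost without replicate 1 or 2 of 450 mOsm or replicate 3 of 450 mOsm with LPS (0.0504 to 0.0766), with loess (0.147), with no filter (0.051) and after median centring (0.13).

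The interaction, the salt change with LPS minus that without, was called for 4 members. They are 10.8% of the members, below the 21.1% of all genes. Each had the same sign in 4 of 4 mice, which is read from the same arrays as the call. Ctsc had -0.49 ± 0.10 (SE; adjusted p = 0.00133) and Tfeb -0.41 ± 0.09 (SE; adjusted p = 0.00317). For Ctsc the salt difference within a mouse was -0.14 to -0.08 with LPS and 0.26 to 0.52 without LPS. For Tfeb it was -0.48 to -0.39 with LPS and -0.18 to 0.08 without LPS. Gla had 0.27 ± 0.07 (SE; adjusted p = 0.0111), with salt differences of 0.17 to 0.38 with LPS and -0.11 to 0.13 without LPS; the call was lost without mouse 1 (0.117) or mouse 3 (0.0747). Acp2 had -0.24 ± 0.07 (SE; adjusted p = 0.026), with -0.41 to -0.34 with LPS and -0.28 to 0.05 without LPS. The Acp2 call was also lost without mouse 1, 2 or 3, and its highest adjusted p in any setting was 0.199. Single arrays whose absence lost it were replicates 1 and 3 of 290 mOsm and replicate 1 of 450 mOsm. Replicate 4 of 290 mOsm with LPS and replicate 2 of 450 mOsm with LPS did so too (0.0502 to 0.057 over these arrays). Sgsh, at 0.33, did not pass (adjusted p = 0.0882) but did without 290 mOsm replicate 2 (0.41, adjusted p = 0.0256).

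**Figure D3:**
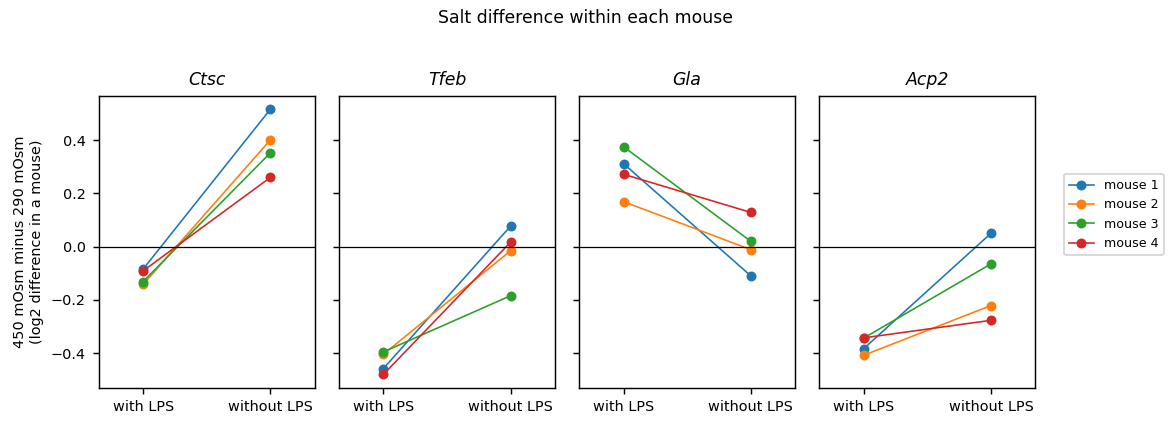
Difference between the 450 and 290 mOsm arrays of a mouse (vertical axis, log2 units) with LPS and without LPS for the 4 genes with a called interaction; each line is 1 of 4 mice. The lines of Ctsc, Tfeb and Acp2 run upward toward the side without LPS and those of Gla downward, in all 4 mice.

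The 10 members with CACGTG in their window and the 23 with a window without it are set side by side as a description. With LPS at 290 mOsm, 0 of the 10 were higher and 10 lower (Gla not with loess) with a median of -0.45, and 7 of the 23 were higher and 13 lower with a median of -0.19. At 450 mOsm 1 of the 10, Gla, was higher and 9 were lower, with a median of -0.39. There 5 of the 23 were higher and 15 lower, with a median of -0.23. Over all genes tested, LPS gave 26.4% higher and 47.1% lower at 290 mOsm, and 26.4% and 45.3% at 450 mOsm. Any part of the hexamer in these changes was not tested. With salt and no LPS the medians were -0.04 and 0.01, and with salt and LPS 0.06 and -0.07. Of the 4 printed promoters, that of Sgsh belongs to the member with the lowest LPS change at 290 mOsm, and that of Gla to the only member of the 10 that was higher with LPS at 450 mOsm.

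Other lysosomal genes were taken from 9 lists, with 113 of 139 listed genes tested. With LPS at 290 mOsm 21 of the 113 were higher and 75 lower (18.6% and 66.4%), with a median of -0.39. Of all genes 26.4% were higher and 47.1% lower there, with a median of -0.11. At 450 mOsm 18 of the 113 were higher and 77 lower (15.9% and 68.1%), with a median of -0.36. All genes had 26.4% higher and 45.3% lower at 450 mOsm, with a median of -0.09. All 10 further glycosidases fell at 290 mOsm, among them Galc, the galactosylceramidase (-1.88), and Fuca1, the alpha-fucosidase (-0.98). Of 11 lipid and nucleic acid hydrolases 0 rose and 10 fell, with Pla2g15, a lysosomal phospholipase (-1.96), and the acid nuclease Dnase2a (-1.67) lower. Of 9 further proteases 0 rose and 8 fell, among them Prcp, a prolylcarboxypeptidase (-1.10).

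Among 22 further membrane proteins 5 rose and 14 fell with LPS at 290 mOsm: the endolysosomal cation channel gene Tpcn1 changed by -2.55, the cystine exporter gene Ctns by -1.58 and the chloride-proton exchanger gene Clcn7 by 0.90. Of 9 sorting receptors and adaptors 1 rose and 5 fell, with Sort1, or sortilin, at -1.50 and Igf2r, a mannose 6-phosphate receptor, at -0.78. The cathepsin inhibitors went the other way, with 5 of 8 higher and 1 lower; Cst7, the cystatin F gene, rose by 3.93 ± 0.07 (SE; adjusted p = 4.31e-18). Of 16 regulators 5 rose and 10 fell, among them the gene of the GTPase RagD, which recruits mTORC1 to lysosomes, Rragd (-1.26). The Tfeb relative Tfec rose by 0.43. Of 18 autophagy genes 3 rose and 11 fell, with the receptor gene Sqstm1 at 0.63 and Atg7, needed for autophagosome formation, at -1.15. Of 10 sulfatases, acid phosphatases and modifying enzymes 2 rose and 6 fell, with the acid phosphatase gene Acpp at 1.19 and the heparan acetyltransferase gene Hgsnat at -1.15. Lower shares were 63.6% of the membrane proteins, 62.5% of the regulators and 61.1% of the autophagy genes, against 47.1% of all genes. They were 60.0% of the sulfatase list, 55.6% of the sorting genes and 12.5% of the cathepsin inhibitors. Among the inhibitors 62.5% were higher, against 26.4% of all genes.

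With salt 26 of the 113 genes were higher and 32 lower without LPS, and 23 higher and 29 lower with LPS. These are 23.0% and 28.3% without LPS, against 20.6% and 23.7% of all genes, and 20.4% and 25.7% with LPS, against 16.8% and 21.8%, so they lie near the shares of all genes. Without LPS the amidase gene Naaa rose by 1.30 ± 0.08 (SE; adjusted p = 5.84e-10) and the phospholipase-like gene Plbd1 by 0.94 ± 0.07 (SE; adjusted p = 4.86e-09), and the sulfatase gene Galns fell by 0.95 (adjusted p = 1.07e-08). With LPS Hgsnat rose by 0.98 and the exonuclease gene Pld4 by 0.77. Cathepsin inhibitors fell in 5 of 8 cases and rose in 1 in each setting, with the stefin gene Stfa2 at -2.46 with LPS and -1.43 without. Stefins of the Stfa family are abundant in neutrophils, whose markers fell with salt as given above; the part of those cells was not tested. The interaction was positive for 13 and negative for 16 of the 113, or 11.5% and 14.2%, near the 10.7% and 10.4% of all genes.

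**Figure D4:**
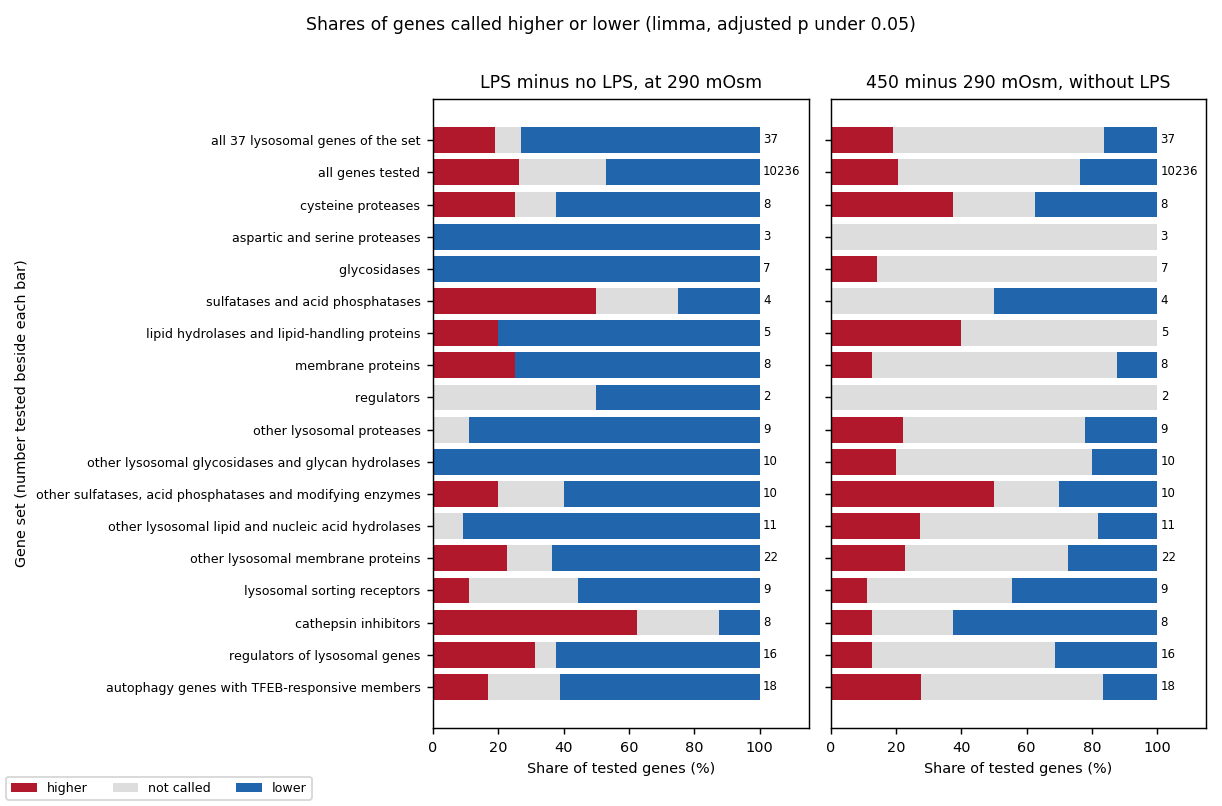
Share of tested genes (horizontal axis, percent) called higher, not called or called lower for LPS against no LPS at 290 mOsm (left) and for 450 against 290 mOsm without LPS (right), in the 37 lysosomal genes, all 10236 genes tested, the 7 roles and 9 lists of other lysosomal genes; the number tested stands beside each bar. On the left the lower share is 73.0% for the 37, against 47.1% for all genes, and on the right it is 16.2% for the 37, against 23.7% for all genes.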

How the data were processed

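Total RNA of 16 dendritic cell cultures was measured on 1-colour mouse gene arrays, 4 cultures per group. The authors deposited log2 expression values per probe set, made with RMA in oligo per the submitters' processing notes; no scanner file was used here. Of 22549 probe sets, 20646 carried 1 gene symbol, 551 several and 1352 none, by the platform annotation; symbols were set against RefSeq by Entrez ID (20596 found, 0 changed). The probe set with the highest mean stood for each of 19272 genes, and 10236 genes with at least 4 arrays above the median of all values (6.83) were tested.

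One mean per group was fitted with limma 3.58.1 in R 4.3.3, and 5 contrasts were tested two-sided with Benjamini-Hochberg adjustment over 10236 genes at 0.05. The fit has 12 residual degrees of freedom, so the number of arrays limits the precision. The labels give the same 4 mice in every group. Over 24 same-mouse pairs the correlation of deviations from the group means ran from -0.15 to 0.43, with a median of 0.0953 against -0.0351 for different mice. In 11 pairs it was over 0.1. In 12 of the 24 an array correlated best with its own mouse among the 4 arrays of the other group. The main model has no mouse term, and the mouse as a block was an alternative. Others were the filter, scaling, probe set rule, variance model, arrays in the fit, and leaving out each array or mouse.

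The members and lists were chosen with earlier results of these data known. Values per array are given for the members with the 8 largest called changes of a contrast; from other lists up to 2 called genes per direction and contrast, with the smallest adjusted p, could be named, and from marker lists up to 2 with the largest called change. Promoters came from RefSeq tables and were searched with exact letters. Protein sequences were not used here.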

Additional observations from a re-analysis of the deposited data

Results flagged for a closer look

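Among 148 groups of 4 arrays (37 genes in 4 groups), 11 held an array whose gap to its nearest neighbour passed Dixon's limit for its group's range; chance flags about 1 in 20 groups, or 7.4 here. Among LPS arrays these were Ppt1 in 450 mOsm replicate 1 (9.82 log2 units), Npc1 in 450 mOsm replicate 3 (10.8198), Ctsh in 290 mOsm replicate 2 (11.3551), Ctsz in 290 mOsm replicate 4 (13.29) and Lamp2 in 290 mOsm replicate 1 (12.9005). Among arrays without LPS they were Tpp1 in 450 mOsm replicate 3 (11.6936), Lamp1 in 450 mOsm replicate 2 (13.0821), Laptm4a in 450 mOsm replicate 4 (11.3193), Npc1 in 450 mOsm replicate 4 (11.7164), Ctsk in 290 mOsm replicate 2 (8.1625) and Lamp2 in 290 mOsm replicate 4 (12.6708).

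The salt effect differed between cells with and without LPS, by the interaction term in limma, for Ctsc (-0.49), Gla (0.27), Acp2 (-0.24) and Tfeb (-0.41). These are 10.8% of the members, below the 21.1% of all genes.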

How the results depend on the processing

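Of 103 called changes of the members, 74 stayed called with their sign in each other setting run (11 for salt and LPS, and 10 for the interaction, which uses all groups and so has no fit with only the groups compared) and in all 20 fits that left out 1 array or 1 mouse. With the mouse as a fixed block, Hexa for salt without LPS (adjusted p = 0.0488) and Ctsk for LPS at 290 mOsm (0.0483) passed, and with it as a random block Acp2 for salt without LPS (0.049); the counts of called members moved by less than 1.5 times under both blocks. For salt without LPS, 1343 of all genes were higher after median centring; 11 members were higher with loess and 4 after median centring, and 11 were lower after median centring and 10 with a trended robust variance. For salt with LPS, 3 members were higher with no filter and 3 after median centring. With LPS, 3 members were higher at 290 mOsm after quantile normalization, and 3 at 450 mOsm with no filter, after quantile normalization and with only the groups compared. The cause of these shifts was not tested. Signs turned for uncalled changes of Gla for salt without LPS (-0.0485 after median centring, -0.0044 with array weights), Naglu for salt without LPS (-0.0105 after median centring), Tfeb for salt without LPS (0.0207 with quantile, 0.0136 with loess), Ctsk for LPS (0.0045 with quantile and 0.0378 with loess at 290 mOsm, 0.10 with loess at 450 mOsm) and the interactions of Ctsk (-0.0208 with quantile) and Npc1 (-0.016 with quantile, -0.0057 with loess). They turned for the called changes with LPS at 450 mOsm of Gla (-0.0444), Lamp2 (-0.0423) and Laptm4a (-0.0369) under quantile normalization. Leaving out 1 array or mouse gave 1346 to 2244 genes higher with salt without LPS, and 658 to 1121 positive and 697 to 1149 negative interactions. It gave 3 to 6 members higher with salt with LPS, 3 to 7 with LPS at 290 mOsm, 3 to 6 with LPS at 450 mOsm and 0 to 2 with a positive interaction; the interaction of Gla was lost without mouse 1 (0.117) or mouse 3 (0.0747). The salt change without LPS ran from -0.0331 to 0.0462 for Gla, -0.0151 to 0.0963 for Naglu and -0.076 to 0.0263 for Tfeb, and the interaction from -0.0782 to 0.0046 for Man2b1, -0.0357 to 0.0906 for Naglu and -0.0508 to 0.0768 for Npc1. The Acp2 interaction did not pass with no filter (0.0679), with median centring (0.0726) or without mouse 1, 2 or 3. From the other lists, the markers and the treatment checks, only the genes allowed by the naming rule were followed. Of their 217 called changes, 26 did not pass in some setting and 0 turned sign. The rule takes the smallest adjusted p of a list and the largest marker changes. These counts therefore do not describe all called genes of the lists. Compression of the brightest probe sets was not tested.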
